A study of Rattus norvegicus with 8 samples.

Results

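The unfolded protein response was examined in rat liver under a fat-rich diet combined with fructose in the water, with or without Eucommia ulmoides leaf extract. The list held 33 genes in 4 arms: the sensors with their effector Xbp1, the Atf4-Ddit3 arm, the chaperones and folding enzymes, and the degradation genes. A member was measured where the RefSeq accession of an array probe matched its rat symbol. By this rule 27 of the 33 members were measured, among 25106 genes tested in all. No probe matched Ern1, Xbp1, Chac1, Manf, Edem1 or Derl2, and these 6 are not analysed here. All 27 measured members were well above background on all 8 arrays, as were 80.04% of the genes tested, so no member rested on signals at the floor of the array.

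Liver RNA from male Wistar/ST rats was hybridised to 8 Agilent 1-colour arrays, 4 labelled Control and 4 labelled Eucommia. Both groups were kept on a high-fat diet with water high in fructose for 5 weeks, and the Eucommia group also drank the leaf extract of this tree, which is used for tea. The comparison therefore asks what differed with the extract on top of the diet. No group on an ordinary diet is analysed here, and the age of the rats and the dose of the extract are not given in the sources used here. The labels describe liver taken from each rat but do not say that each array holds a different animal, so the p-values speak only of the scatter among the samples as deposited.

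Proteins that enter the secretory pathway fold in the endoplasmic reticulum, and the hepatocyte, which makes most plasma proteins, is rich in it. When unfolded proteins build up there, the sensors Ern1 (IRE1), Eif2ak3 (PERK) and Atf6 start the response: Ern1 splices the Xbp1 transcript, Atf6 is cut to release a transcription factor, and Eif2ak3 phosphorylates eIF2 alpha. Spliced Xbp1 and cleaved Atf6 are known to induce chaperones and degradation genes, while phosphorylated eIF2 alpha slows translation in general and favours that of Atf4, which induces Ddit3 (CHOP), Trib3 and Asns among others. Lipid overload of the liver is known to be able to engage these pathways. Splicing, cleavage and phosphorylation are not read by these probes, which measure transcript amounts only.

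The promoter sequences of the members are described first, because they hold the elements through which the response is known to act. RefSeq windows of build GRCr8, each from 250 bases before to 50 bases after a gene's start, were searched for the motifs of this response on both strands. Of the 33 members 26 had a window, and 7 (Ern1, Atf6, Atf3, Manf, Pdia3, Pdia6 and Derl1) did not. The ER stress response element, ERSE, searched as CCAAT, any 9 bases and CCACG, was found in 22 of 33469 windows (0.0657%) and in 8 of the members' 27 windows (29.6%), which came from 26 genes because Hyou1 has 2. Members and motif were both chosen as parts of this response, so the gap between the shares is no test of the members. The stretches that hold the ERSE follow, in build GRCr8, turned so that the element reads forward, with the fixed letters in capitals and up to 20 bases on each side.
Xbp1, chr14:84604538-84604596, plus strand: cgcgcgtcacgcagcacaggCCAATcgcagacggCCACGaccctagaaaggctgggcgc
Hspa5, chr3:38452953-38453011, plus strand: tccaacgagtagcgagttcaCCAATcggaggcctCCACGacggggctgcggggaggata
Hsp90b1, chr7:23012431-23012489, minus strand: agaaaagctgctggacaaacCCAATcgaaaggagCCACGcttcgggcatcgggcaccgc
Hsp90b1, chr7:23012327-23012385, plus strand: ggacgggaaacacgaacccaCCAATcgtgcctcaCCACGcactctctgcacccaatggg
Calr, chr19:40213117-40213173, minus strand: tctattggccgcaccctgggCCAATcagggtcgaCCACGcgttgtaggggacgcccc
Canx, chr10:35158049-35158107, minus strand: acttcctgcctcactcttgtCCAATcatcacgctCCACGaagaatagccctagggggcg
Dnajc3, chr15:102432514-102432572, plus strand: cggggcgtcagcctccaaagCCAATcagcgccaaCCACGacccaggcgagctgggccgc
Creld2, chr7:121789219-121789277, minus strand: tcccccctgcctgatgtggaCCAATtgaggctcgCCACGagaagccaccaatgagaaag
Derl3, chr20:12766581-12766639, plus strand: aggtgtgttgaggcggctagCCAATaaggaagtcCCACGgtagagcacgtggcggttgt
Of these 8 genes 6 are chaperones or folding enzymes, 1 is Derl3, of the degradation arm, and 1 is Xbp1 itself. Hsp90b1 holds the element at 2 places. The related ERSE-II, searched as ATTGG, any 1 base and CCACG, stood in 17 windows of all (0.0508%) and in those of Hyou1, Dnajb11 and Herpud1. In Dnajb11 it runs past the start site and is not printed. The other matches are shown in the same way, because Herpud1 and Hyou1 belong to different arms but share these letters.
Hyou1, chr8:53602674-53602724, minus strand: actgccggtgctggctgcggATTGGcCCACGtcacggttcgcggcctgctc
Hyou1, chr8:53602774-53602824, minus strand: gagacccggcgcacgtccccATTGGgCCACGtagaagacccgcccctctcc
Herpud1, chr19:10614801-10614851, minus strand: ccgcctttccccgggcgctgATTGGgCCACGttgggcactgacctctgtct
Exact ERSE or ERSE-II matches were thus present in 11 members, of which 10 were measured, and in no member of the Atf4-Ddit3 arm with a window. In that arm the composite C/EBP-ATF element, CARE, searched as TGATGNAA, was found in Chac1 and Trib3, and it also stood in Herpud1. CARE is short and was found in 3.98% of all windows.
Chac1, chr3:126795944-126795991, minus strand: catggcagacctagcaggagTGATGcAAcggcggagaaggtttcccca
Trib3, chr3:161275534-161275574, plus strand: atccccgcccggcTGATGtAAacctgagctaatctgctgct
Herpud1, chr19:10614864-10614911, plus strand: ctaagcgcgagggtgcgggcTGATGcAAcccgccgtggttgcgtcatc
The cyclic AMP element TGACGTCA, which can overlap other ATF sites, was found in Ppp1r15a (1.83% of all windows). TGACGTGG, the core of the unfolded protein response element, was found in Hyou1 (0.595% of all windows), where it overlaps the ERSE-II match farther from the start site. Ddit3 and Sesn2, both lower in the Eucommia group as described next, held none of the 5 motifs in this window. Their 250 bases before the start site are given for comparison and carry no capitals.
Ddit3, chr7:65001445-65001694, plus strand: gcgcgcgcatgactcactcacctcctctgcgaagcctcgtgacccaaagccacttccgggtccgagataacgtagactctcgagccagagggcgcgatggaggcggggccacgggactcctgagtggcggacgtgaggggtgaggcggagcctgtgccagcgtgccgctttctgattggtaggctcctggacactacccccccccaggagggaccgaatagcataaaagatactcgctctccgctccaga
Sesn2, chr5:150005256-150005505, minus strand: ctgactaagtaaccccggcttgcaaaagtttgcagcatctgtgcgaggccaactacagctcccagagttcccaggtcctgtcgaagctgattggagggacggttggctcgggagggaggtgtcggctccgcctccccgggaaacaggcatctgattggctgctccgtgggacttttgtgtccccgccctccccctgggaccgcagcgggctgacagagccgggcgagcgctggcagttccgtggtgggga
A match is a description of letters and does not show that a factor binds, and an absent match says only that these exact letters are not in the window.

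Signals are given as log2 values relative to the 75th percentile of each array, so that 0 is the signal at that percentile, and a log2 difference is Eucommia minus Control. A difference was called past an adjusted p of 0.05 by limma over all 25106 genes. In the Eucommia group 3 of the 27 measured members were called lower and 0 higher. All 3 lay in the Atf4-Ddit3 arm: Ddit3 fell by a log2 value of 0.56, Sesn2 by 0.49 and Atf3 by 1.02. The other arms had 0 calls, with 0 of 2 sensors, 0 of 13 chaperones and folding enzymes and 0 of 5 degradation genes. Among all genes 24.6% were called, 6.25% lower and 18.4% higher. The members' share called lower was 11.1%, and their share called higher was 0%. All 27 were above background on all 8 arrays, and among such genes 6.997% were called lower and 11.6% higher. Among genes with a mean log2 signal above 0, the set of 23 of the 27 members, 5.99% were lower and 3.94% higher. Rises were thus uncommon among genes as bright as most members, so their 0% higher does not mark them out.

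The count of calls gives only part of the picture, since 23 of the 27 members had a negative log2 difference and 4 a positive one. Among all genes tested 47.6% were negative, and among genes above background on all 8 arrays 53.9% were. Among genes with a mean log2 signal above 0, which held 23 of the 27 members, 57.9% were negative. The members' median log2 difference was -0.27. It was 0.02 for all genes, -0.02 for genes above background on all 8 arrays and -0.04 for genes with a mean log2 signal above 0. At an unadjusted p under 0.05 by limma 10 of the 27 members were past the threshold, all of them lower. At that threshold 12.7% of all genes were lower, and 14.4% of genes above background on all 8 arrays. The medians of the arms were -0.35 for the 2 sensors, -0.43 for the Atf4-Ddit3 arm, -0.27 for the chaperones and -0.17 for the degradation genes. The sensors' median was -0.202 without Eucommia replicate 4 and -0.213 with normexp. The median of the Atf4-Ddit3 arm was -0.216 without Control replicate 4, -0.232 without Eucommia replicate 1 and -0.275 with normexp, and that of the degradation genes was -0.0896 without Control replicate 4. The arms were chosen as groups of related genes, and no test of one arm against another was made.

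**Figure D1:**
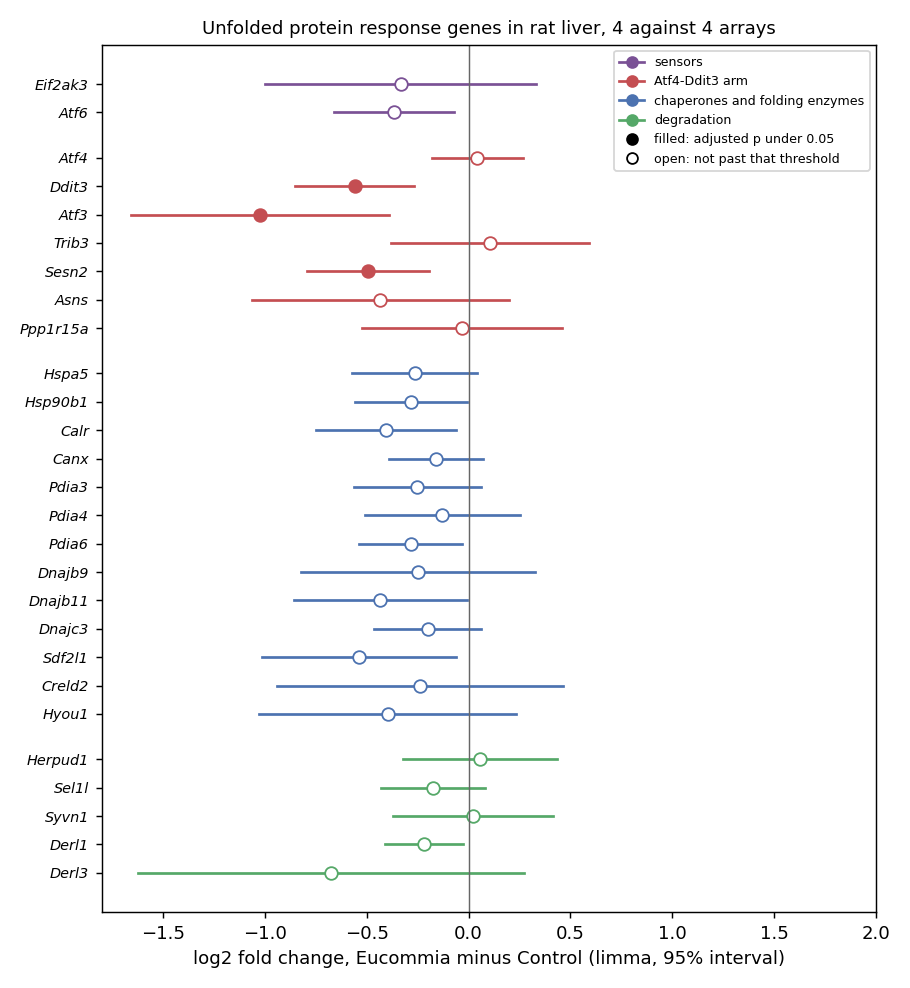
Log2 difference between the Eucommia and Control groups (x axis) for the 27 measured members, coloured by arm. Points are limma estimates from 4 against 4 arrays and lines their 95% intervals; filled points (Ddit3, Atf3 and Sesn2) passed an adjusted p of 0.05, and all 13 chaperones lie left of 0 as open points.

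The 2 groups also differed as sets of arrays, which touches every value given here. Slide 1 held the 4 Control arrays and slide 2 the 4 Eucommia arrays, and each slide had its own scan. Slide, scan and treatment cannot be told apart in this design. On the Control arrays 59.8% ± 1.17 of spots were well above background and on the Eucommia arrays 70.7% ± 1.16 (SD, n = 4). Rises were commoner among dim genes: 26.8% of genes at a mean log2 signal of 0 or below were called higher, against 3.94% of brighter genes, and 23 of the 27 members were in the brighter set. Of all called genes 74.6% were higher; after quantile normalization the share was 58.7%, after cyclic loess 59.0%, after normexp with quantile normalization 59.7%, and after centring each array on its median 31.9%. That centring shifted the all-gene median from 0.02 to -0.24, and 15 members were then called lower. The members' median minus that of all genes was -0.28 with either of these scalings, which both subtract 1 constant per array. It was -0.181 after quantile normalization, -0.187 after normexp with quantile normalization and -0.198 after cyclic loess.

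The tissue matched its label. All 10 hepatocyte markers were measured, with a summed linear signal of 4625 to 5346 times the 75th percentile on Control arrays and 4196 to 4951 on Eucommia arrays, and 0 of 10 were called. Of these markers 9 were negative, with a median log2 difference of -0.18. In 2 of them, Apoa1 and Ttr, all Eucommia arrays lay below all Control arrays. That separation was seen in 8.82% of all genes and in 10.2% of genes above background on all 8 arrays. In bulk tissue, fewer cells of a type and less RNA per cell cannot be told apart. Kupffer cell and macrophage markers were summed at 116 to 188 on Control and 86.8 to 137 on Eucommia arrays, with 9 of 9 measured markers negative and 0 called. B and plasma cell markers, from cells known for a large endoplasmic reticulum, were summed at 0.600 to 0.879 and 0.684 to 0.839, with 0 of 4 called. Pancreatic acinar markers, from another secretory cell, were summed at 2.34 to 2.55 and 3.57 to 4.95, with 4 of 8 called higher (Ctrb1 by a log2 value of 1.79, Cela2a by 1.11) while Prss1 and Clps were above background on no array. With normexp Cela2a was 0.24, Prss2 and Cel did not pass, and Prss2 did not pass in 9 of the 20 alternatives. The other lists had sums of 3.74 to 5.50 against 4.74 to 6.18 for T and NK cells (1 of 7 higher), 80.1 to 97.2 against 71.2 to 83.1 for endothelium (1 of 4 higher), and 20.7 to 32.4 against 29.3 to 38.4 for stellate cells (1 of 6 higher). The stellate call, Col1a1, did not pass with the mean over its probes (0.31, adjusted p = 0.08 by limma), and the endothelial call, Cdh5, went from 1.01 to 0.40 with normexp. Kdr, not called, made up most of the endothelial sum and went the other way (-0.26). Pecam1, also not called, was above background on 0 Control and 4 Eucommia arrays. Neutrophil markers had 0.235 to 0.527 against 0.322 to 0.471 (1 of 3 higher), with Camp and Cxcr2 above background on no array, and cholangiocyte markers had 1.27 to 1.82 against 1.24 to 1.36 (1 higher and 1 lower of 3). The higher genes of these lists, Elane and Cftr, were above background on 0 Control and 4 Eucommia arrays, so they were tested only through the Eucommia group and were not tested under the filter on all 8 arrays. Of the skeletal muscle markers Mb was measured and called higher (0.959 to 1.19 against 1.98 to 2.17), while Acta1, Ckm, Myh4 and Tnnt3 were above background on no array. The counts of calls in these lists stand beside 6.25% lower and 18.4% higher among all genes. The part of these cells in the members' values was not tested.

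Of the sensors, Eif2ak3 and Atf6 were measured. Atf6, the membrane-bound factor that is cut in the Golgi, had log2 signals of 1.18, 0.998, 1.15 and 1.11 on the Control arrays and 0.73, 0.68, 1.07 and 0.48 on the Eucommia arrays. Of the 4 Eucommia arrays 3 lay below all Control arrays, and replicate 3 lay within them. The difference of -0.37 ± 0.13 (SE) did not pass (adjusted p = 0.0727 by limma). It passed without Eucommia replicate 3 (adjusted p = 0.0149). Eif2ak3, the kinase that phosphorylates eIF2 alpha, had -2.20, -1.40, -0.95 and -1.40 on Control and -1.47, -1.79, -1.59 and -2.46 on Eucommia arrays. The groups overlapped over most of their range, with a difference of -0.33 ± 0.29 (adjusted p = 0.464).

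In the Atf4-Ddit3 arm 3 of 7 measured members were called lower and the others did not pass. The threshold is the only divide between them, as no member was tested against another in this arm. Atf4 itself, the factor at its head, had log2 signals of 5.97, 6.10, 5.87 and 6.16 on Control and 5.95, 6.10, 6.16 and 6.06 on Eucommia arrays. These groups covered almost the same range, and the 95% interval of the difference was -0.18 to 0.27. Its protein is set largely by translation, which is not measured here.

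Ddit3, which encodes the pro-apoptotic factor CHOP, had 1.29, 1.40, 1.38 and 1.26 on the Control arrays and 0.54, 0.64, 1.11 and 0.80 on the Eucommia arrays. Every Eucommia array lay below every Control array. Such a separation downwards was seen in 8.82% of all genes, and upwards in 19.8%. Among genes above background on all 8 arrays the shares were 10.2% and 13.5%. The group means were 1.33 ± 0.07 and 0.77 ± 0.25 (SD, n = 4), a difference of -0.56 ± 0.13 (SE, adjusted p = 0.0125 by limma), or 1.47-fold more in the Control group. Ddit3 was called lower under all 20 alternatives with a fit of each gene, with log2 differences from -0.82 with median centring to -0.37 with normexp. The series table among these alternatives repeats the same values. Ddit3 has 1 probe, so the filters and the mean over probes also left its log2 difference unchanged.

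Atf3, a bZIP factor induced by many stresses, had 0.66, 1.09, 1.53 and 1.61 on Control and -0.16, 0.82, -0.19 and 0.32 on Eucommia arrays. The highest Eucommia array, replicate 2, lay above the lowest Control array, replicate 1, and the other 3 Eucommia arrays lay below all controls. The means were 1.22 ± 0.44 and 0.20 ± 0.47 (SD, n = 4), and the difference of -1.02 ± 0.28 (SE, adjusted p = 0.0266) was a 2.03-fold higher signal in the Control group. Atf3 kept its direction but was called in 3 of the 8 fits on 7 arrays. The call was lost when Control replicate 3 (adjusted p = 0.0629) or 4 (0.0684) was omitted, and likewise Eucommia replicate 1 (0.0715), 3 (0.0724) or 4 (0.0536).

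Atf3 is also an immediate-early gene, a class that responds within minutes to handling of tissue. In the list of immediate-early and heat shock genes 2 of 13 measured were lower and 0 higher, with a median log2 difference of -0.21. Among all genes 6.25% were called lower and 18.4% higher. Dusp1, a phosphatase of MAP kinases, had 4.64, 4.40, 4.34 and 4.43 on Control and 3.02, 3.84, 4.06 and 2.84 on Eucommia arrays (difference -1.01 ± 0.26 SE, adjusted p = 0.0223). Ier2, another immediate-early gene, had a difference of -0.67 ± 0.18 (adjusted p = 0.0226), which did not pass with the replicate block or in 6 of the 8 fits on 7 arrays. Dusp1 did not pass without Control replicate 1 or Eucommia replicate 1. Fos and Jun differed by -0.26 and -0.27 without passing, and Hspa1a by 0.57. The summed signal of the list was 336 to 419 on Control and 273 to 342 on Eucommia arrays, and its part in the difference of Atf3 was not tested.

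Sesn2, a sestrin induced by Atf4 and by p53 that restrains mTORC1, had log2 signals of -0.11, -0.38, -0.16 and -0.12 on Control and -0.37, -0.92, -0.67 and -0.77 on Eucommia arrays. The ranges touched at Control replicate 2 and Eucommia replicate 1, and the remaining arrays were apart. The difference was -0.49 ± 0.13 (SE, adjusted p = 0.0241), 1.41-fold more in the Control group. With 1 array omitted Sesn2 was called in 2 of 8 fits, those lacking Control replicate 2 or Eucommia replicate 1. Omitting Control replicate 1, 3 or 4, or Eucommia replicate 2, 3 or 4, gave an adjusted p by limma from 0.0535 to 0.0677.

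Other members of the arm gave no call. Trib3, a pseudokinase induced by Atf4 and Ddit3, had 3.18, 2.70, 2.61 and 3.60 on Control and 2.91, 3.25, 3.14 and 3.19 on Eucommia arrays. The Eucommia arrays lay inside the range of the Control arrays, and the interval of the difference was -0.38 to 0.59. Asns, the asparagine synthetase, had -0.83, -0.89, -0.90 and -0.01 on Control and -1.69, -0.55, -0.90 and -1.20 on Eucommia arrays (difference -0.43, interval -1.06 to 0.20). Ppp1r15a (GADD34), which returns eIF2 alpha to its unphosphorylated state, had 1.35, 1.44, 0.76 and 1.55 against 0.95, 1.03, 1.70 and 1.29. For both genes the groups overlapped, and the interval of Ppp1r15a ran from -0.52 to 0.46. A fall of the size seen in Ddit3 was inside the interval of Asns but outside those of Atf4, Trib3 and Ppp1r15a.

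**Figure D2:**
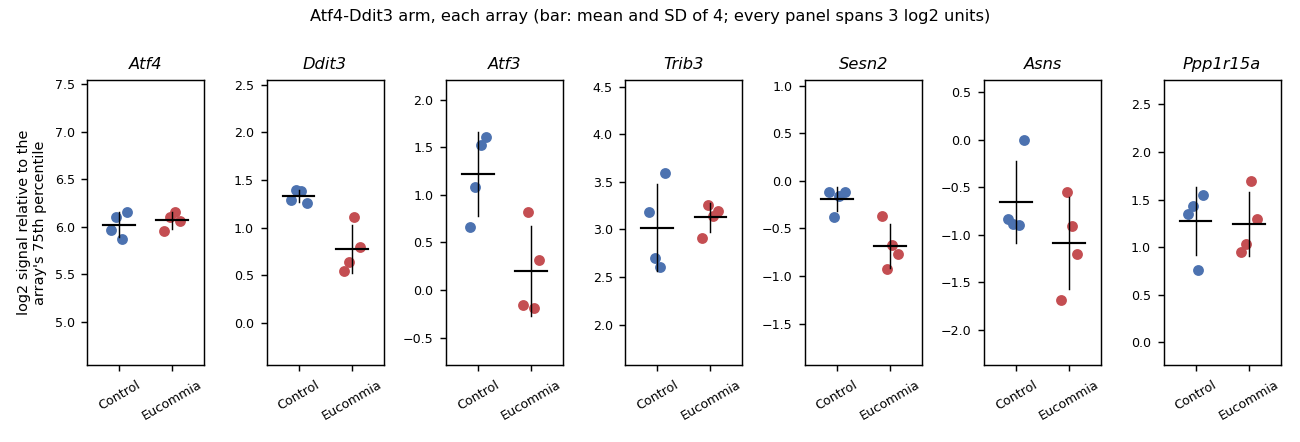
Log2 signal relative to the array's 75th percentile (y axis) of the 7 measured members of the Atf4-Ddit3 arm, 1 point per array, with the mean and SD of 4 arrays in black. Ddit3 separates the groups fully, Atf3 and Sesn2 do so apart from 1 array of each group, and Atf4, Trib3 and Ppp1r15a overlap.

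All 13 measured chaperones and folding enzymes had lower mean signals in the Eucommia group, with log2 differences from -0.54 to -0.13, and 0 of the 13 passed by limma (5 had an unadjusted p under 0.05). All 13 stayed negative under every scaling tried, and 12 of 13 without Control replicate 3 or without Eucommia replicate 4. Hspa5 (BiP), the main Hsp70 of the endoplasmic reticulum and the gene whose ERSE is printed above, had 7.21, 7.47, 7.78 and 7.44 on Control and 7.15, 7.21, 7.40 and 7.09 on Eucommia arrays. Of the Eucommia arrays 3 lay below all Control arrays, but the difference of -0.27 ± 0.13 did not pass (adjusted p = 0.196, interval -0.57 to 0.04). Hsp90b1 (GRP94), the Hsp90 of this compartment, had 5.54, 5.83, 6.06 and 5.65 against 5.45, 5.53, 5.55 and 5.42, with Eucommia replicate 3 just above Control replicate 1. By its dimmer probe the difference was -0.07 in place of -0.28.

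The lectin chaperones, which hold glycoproteins while they fold, gave 1 separation. Calr, the soluble calreticulin, had 4.68, 4.79, 4.94 and 4.81 on Control and 4.50, 4.65, 4.48 and 3.96 on Eucommia arrays. All Eucommia arrays lay below all Control arrays, and the difference of -0.41 ± 0.15 (SE) missed the threshold (adjusted p = 0.0855). Canx, its membrane-bound relative, had 2.95, 3.17, 3.14 and 3.15 against 3.14, 2.92, 2.91 and 2.81, overlapping groups with a difference of -0.16 (interval -0.39 to 0.07) and -0.17 by its other probe.

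The protein disulfide isomerases, which form and rearrange disulfide bonds, differed by -0.25 (Pdia3), -0.13 (Pdia4) and -0.28 (Pdia6). Pdia6 had 6.35, 6.60, 6.73 and 6.73 on Control and 6.23, 6.46, 6.29 and 6.29 on Eucommia arrays, with Control replicate 1 inside the Eucommia range (adjusted p = 0.101 by limma). Pdia6 passed in 2 of the 20 alternatives, median centring and the fit without that Control array (adjusted p = 0.0278 by limma). Pdia4 had 2.27, 2.62, 2.75 and 2.54 against 2.63, 2.64, 2.41 and 1.99, groups that overlapped.

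Of the J proteins, which hand clients to Hspa5, Dnajb11 differed by -0.43 ± 0.19 (adjusted p = 0.132), Dnajc3 by -0.20 ± 0.12 (adjusted p = 0.256) and Dnajb9 by -0.25 ± 0.25 (adjusted p = 0.534). Dnajc3 had 3.82, 4.15, 4.32 and 4.22 on Control and 3.93, 3.95, 3.90 and 3.93 on Eucommia arrays. Its Eucommia arrays were tightly grouped above Control replicate 1 and below the other 3. Dnajc3 passed in 2 of the 20 alternatives, median centring and the fit without that Control array (adjusted p = 0.0409 by limma). Dnajb9 (ERdj4) spread over 1.29 log2 units among the controls, and its second probe gave -0.47.

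Sdf2l1, a partner of the J proteins, had the largest difference of the arm. Its signals were 3.61, 4.22, 4.64 and 4.22 on Control and 3.62, 3.70, 3.87 and 3.36 on Eucommia arrays, so that Control replicate 1 lay among the Eucommia arrays and the other 3 lay above them. The difference was -0.54 ± 0.21 (SE, adjusted p = 0.0998), and without Control replicate 1 it was -0.72 (adjusted p = 0.0130). Sdf2l1 passed in 3 of the 20 alternatives: that fit, median centring and array weights. Creld2, a secreted folding factor, had 2.46, 3.16, 4.12 and 3.10 against 2.97, 2.74, 3.30 and 2.89, and Hyou1, a large Hsp70 relative, had 3.78, 4.10, 4.82 and 4.11 against 3.69, 3.59, 4.50 and 3.45. In both genes the controls alone spanned more than the difference between groups: 1.66 log2 units against -0.24 for Creld2, and 1.04 against -0.40 for Hyou1. The range among the 4 Control arrays exceeded the difference between the groups in 12 of the 13 chaperones and in 21 of all 27 members. The exceptions among all members were Ddit3, Atf3, Sesn2, Atf6, Calr and Derl1. The same excess of the control range was seen in 71 of 93 other pathway genes and in 8 of 10 hepatocyte markers. Its share over all genes was not computed, so the counts are not particular to the members.

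The chaperones shared an order of arrays within the groups. Control replicate 1 was the lowest of the 4 controls in 13 of 13 chaperones and in 5 of 5 degradation genes, but in 1 of 7 genes of the Atf4-Ddit3 arm. Among all genes it was the lowest in 37.8%. Control replicate 3 was the highest control in 10 of the 13 chaperones (27.3% of all genes), and Eucommia replicate 4 was the lowest Eucommia array in 10 of 13 (25.3% of all genes). The scaling of the arrays bears on these shares, as Control replicate 1 had the highest 75th percentile of raw signal (279, against 227 to 259 in the other controls). With quantile normalization Control replicate 1 was the lowest in 13 of 13 chaperones (29.4% of all genes), with median centring in 11 (23.4%), and with no scaling in 7 (14.98%). As a median over the 13 chaperones, the deviation from each gene's mean over all arrays was -0.13, 0.12, 0.39 and 0.13 on Control replicates 1 to 4 and -0.12, -0.10, -0.03 and -0.38 on Eucommia replicates 1 to 4. By this median Control replicate 1 thus sat near the Eucommia arrays. Without it Sdf2l1, Pdia6 and Dnajc3 were called lower together with Ddit3 and Atf3, while Sesn2 was not called. Leaving out the lowest control widens the differences of the chaperones by itself, so the added calls are no support for a fall.

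**Figure D3:**
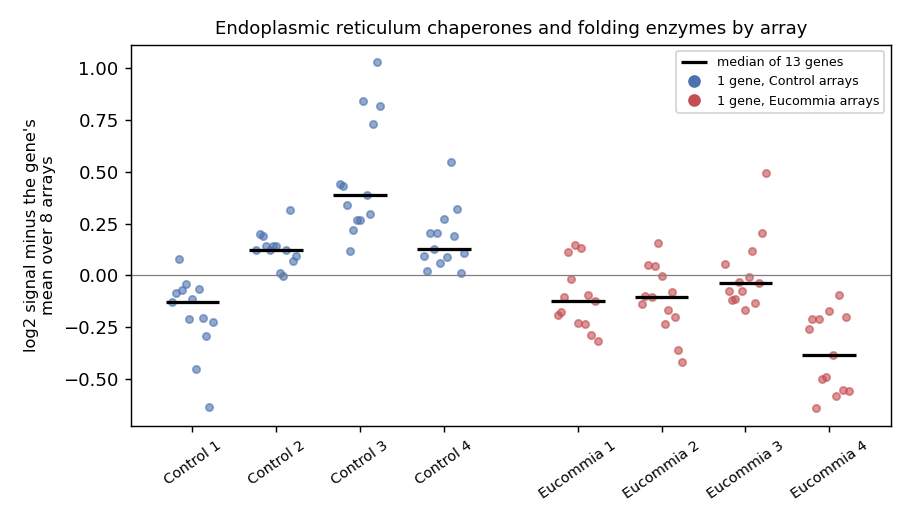
Log2 signal of the 13 measured chaperones and folding enzymes, each minus its own mean over 8 arrays (y axis), for each array (x axis), with 1 point per gene and a black line at the median. Control 1 lies at a median of -0.13, near the Eucommia arrays, and Control 3 and Eucommia 4 stand at the top and bottom with 0.39 and -0.38.

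The degradation arm, which moves misfolded proteins out of the endoplasmic reticulum to the proteasome, gave differences in both directions, from -0.68 for Derl3 to 0.06 for Herpud1. Herpud1, a scaffold of the ligase complex, had 6.16, 6.77, 6.60 and 6.34 on Control and 6.39, 6.27, 6.79 and 6.66 on Eucommia arrays, and Syvn1 (HRD1), its ubiquitin ligase, had 4.09, 4.30, 4.91 and 4.22 against 4.31, 4.31, 4.46 and 4.53. In neither gene were the groups apart, with intervals of -0.32 to 0.43 and -0.37 to 0.42. The second probes gave 0.14 for Herpud1 and 0.01 for Syvn1. Sel1l, the adaptor of Syvn1, had a difference of -0.17 ± 0.11 (SE, adjusted p = 0.311).

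Derl1, a derlin of the exit channel, had the narrowest range among the controls of the arm, with 3.01, 3.06, 3.13 and 3.13 on Control and 2.80, 2.82, 2.85 and 2.98 on Eucommia arrays. All Eucommia arrays lay below all Control arrays, but the difference was small, -0.22 ± 0.08 (SE), and did not pass (adjusted p = 0.0929 by limma). It passed in 4 of the 20 alternatives, among them array weights (adjusted p = 0.0364) and trended robust variance (0.0497). Derl3, the derlin whose promoter holds an ERSE, was dim and spread widely, with -3.28, -2.44, -1.07 and -1.91 on Control and -2.99, -2.89, -2.36 and -3.15 on Eucommia arrays. Its controls alone spanned 2.21 log2 units, and the difference of -0.68 ± 0.42 did not pass (adjusted p = 0.288). Downward separation without overlap was thus seen in 3 of the 27 members (11.1%: Ddit3, Calr and Derl1). The share was 8.82% of all genes and 10.2% of genes above background on all 8 arrays, so the members were near it.

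Read by promoter motif, the 10 measured members with an ERSE or ERSE-II had 9 negative differences, a median of -0.27 and 0 calls. The 12 measured members with a window and neither motif also had 9 negative differences, a median of -0.21 and 2 calls, Ddit3 and Sesn2. The 5 members without a window had 5 negative differences and 1 call, Atf3. These sets were not tested against each other.

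Of 124 other genes of the pathway, 93 were tested, and 7 were lower and 5 higher, with a median log2 difference of -0.11. Among all genes 6.25% were called lower and 18.4% higher, and the counts of the separate lists stand beside the same shares. In translocation and signal peptide removal 2 of 13 were lower and 12 of 13 negative. Sec61b, a subunit of the protein channel, had 5.10, 5.58, 5.60 and 5.22 on Control and 4.90, 5.00, 4.76 and 4.85 on Eucommia arrays (difference -0.50 ± 0.13 SE, adjusted p = 0.0253), and Sec63, the J protein at that channel, differed by -0.57 ± 0.18 (adjusted p = 0.0457). In both genes the groups were apart, although Sec61b did not pass in 6 and Sec63 in 10 of the 20 alternatives.

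Among other degradation genes 3 of 17 were lower and 0 higher. Erlec1, a lectin that recognises misfolded glycoproteins, had 2.88, 3.05, 2.87 and 2.73 on Control and 2.50, 2.28, 2.30 and 2.15 on Eucommia arrays, a difference of -0.58 ± 0.11 (adjusted p = 0.00416 by limma). Selenos, a selenoprotein that joins the p97 ATPase to the derlins, had 2.51, 2.54, 2.90 and 2.45 against 2.16, 1.84, 2.01 and 1.95, a difference of -0.61 ± 0.12 (adjusted p = 0.00626). All Eucommia arrays of both genes lay below all Control arrays, and both passed in all 20 alternatives. Ubxn4, another p97 adaptor, differed by -0.73 ± 0.22 (adjusted p = 0.0382) and passed in 10 of 20. The mean over its 2 probes gave -0.33 (adjusted p = 0.15 by limma), so the fall was seen in its brighter probe only.

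Of 20 other folding and glycan enzymes 1 was lower, the thioredoxin-like Txndc12 (ERp18), by -0.41 ± 0.09 (SE, adjusted p = 0.0113). Its signals were 3.21, 3.20, 3.28 and 3.32 on Control and 2.81, 2.93, 2.95 and 2.69 on Eucommia arrays, fully apart, and it passed in 19 of 20 alternatives. With the replicate number as a block it did not (adjusted p = 0.0558).

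Among 29 other amino acid and Atf4 response genes 2 were higher and 0 lower. Pycr1, the proline synthesis enzyme, rose from -2.62 ± 0.20 to -0.93 ± 0.21 (SD, n = 4), a difference of 1.69 ± 0.14 (SE, adjusted p = 3.29e-05) that passed in all 20 alternatives and was 0.93 with normexp. Slc7a5, an amino acid transporter, had 0.72 ± 0.21 (adjusted p = 0.0381), was well above background on 1 Control array and 4 Eucommia arrays, and passed in 7 of 19 alternatives, with 0.10 after normexp. Both are dim genes, of the range where 26.8% of all genes were called higher.

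Among 14 other sensor and signalling genes 3 were higher and 1 lower. Creb3l1 (OASIS), a membrane-bound factor of the same kind as Atf6, had 0.83, 0.95, 0.93 and 0.83 on Control and 1.97, 1.93, 1.92 and 2.07 on Eucommia arrays, a difference of 1.09 ± 0.08 (SE, adjusted p = 1.99e-05) or 2.13-fold more in the Eucommia group. Its relative Creb3l2 had a difference of 0.92 ± 0.15 (adjusted p = 0.00201). The groups were fully apart in both genes, and the direction was opposite to that of the mean of Atf6. Wfs1, the membrane protein of Wolfram syndrome, was higher by 0.67 ± 0.14 (adjusted p = 0.00729), and by 0.41 with median centring. Mbtps2, a protease that cuts Atf6 and its relatives, was lower, from -3.27 ± 0.32 to -4.24 ± 0.29 (SD, n = 4), a difference of -0.96 ± 0.19 (SE, adjusted p = 0.00591). These 4 genes passed in all 20 alternatives, but with normexp the differences of the dim Creb3l2 and Mbtps2 were 0.18 and -0.21.

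**Figure D4:**
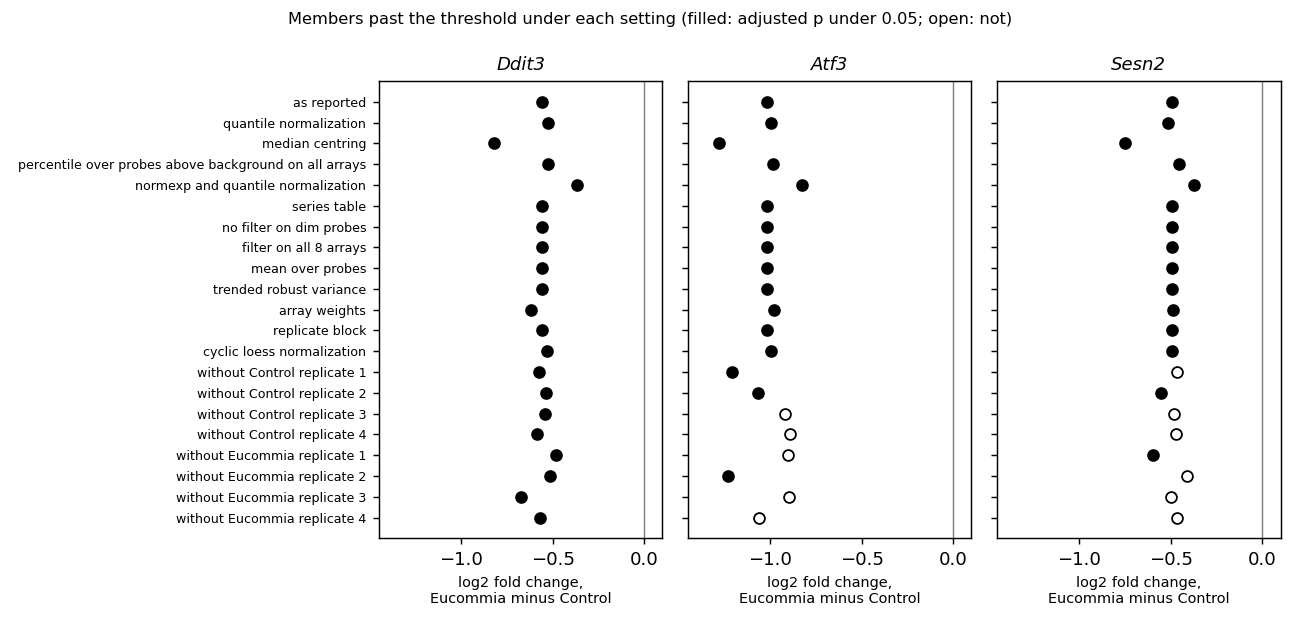
Log2 difference between Eucommia and Control (x axis) of the 3 members past the threshold, under the setting reported and each of 20 alternatives (rows). Filled points have an adjusted p under 0.05: Ddit3 is filled in all rows, Atf3 in 15 and Sesn2 in 14 of the 20 alternatives, and the open points are fits that left 1 array out.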

How the data were processed

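Liver RNA of 8 rat samples was measured on 1-colour (Cy3) arrays from 500 ng of total RNA, per the labels' protocols. The deposited scanner files hold intensity values from Agilent Feature Extraction 10.1.1.1 (submitters' processing notes), given as its processed signal under the 1-colour protocol named in the file headers; the corrections made within an array are not given in the sources used here, and arrays were not normalized to each other. The other deposited columns used are flags per spot. The deposited series table equalled the processed signal at 100% of 43379 spots on every array (linear, not centred; column medians 26.3 to 32.0).

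Control and outlier spots were left out, no spot was saturated, and spots of a probe were averaged. The log2 signal minus each array's 75th percentile was used. Probes well above background on at least 4 of 8 arrays were kept, 27718 of 41012. Accessions matched without versions to RefSeq symbols (assembly GRCr8) named 16336 probes (39.8%). A gene is its brightest kept probe, an unnamed probe a gene of its own. The comparison used limma 3.58.1 under R 4.3.3 (lmFit, eBayes, 2-sided, Benjamini-Hochberg over 25106 genes), tested on simulated data. The number of arrays limits the precision.

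Motifs were searched in RefSeq promoter windows of GRCr8; the array design uses another build. All members are named, and of the other pathway genes those past the threshold. Members, lists and motifs were chosen with earlier results of these data known. Alternatives were other scalings, background correction, the series table, filters, the mean over probes and each probe alone, variance models, array weights, the replicate block, each array left out, and cyclic loess, added after seeing the data. A slide block could not be fitted.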

Additional observations from a re-analysis of the deposited data

Results flagged for a closer look

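Single arrays stood apart from the other 3 of their group in 3 of 54 gene and group combinations of the members, judged by the gap to the nearest array as a share of the group's range, and chance gives about 1 in 20. Asns had -0.01 on Control replicate 4, with the next control at -0.83 (share 0.926). Canx had 2.95 on Control replicate 1, with the next control at 3.14 (share 0.877), the array that was lowest control in all 13 chaperones. Pdia3 had 2.09 on Eucommia replicate 4, with the next array at 2.56 (share 0.862). None of these genes was called, and without the array in question the adjusted p by limma was still above the threshold.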

How the results depend on the processing

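No named gene changed direction where it was called. Of 540 values of the members over 20 alternatives, 507 kept their side of the threshold, 11 lost a call (Atf3 and Sesn2, in fits that left 1 array out) and 22 gained one, in 12 genes. The 540 include the series table, which holds the same signals, so its values could not differ. The count of members called lower was 15 with median centring and 5 with normexp and quantile normalization, trended robust variance or array weights, and 1 to 5 with 1 array left out; 0 were higher throughout. Other pathway genes called lower numbered 53 with median centring, 12 with normexp, 11 without a filter or with array weights, and 4 to 8 with 1 array left out. With median centring the medians were -0.691 (Atf4-Ddit3 arm), -0.524 (chaperones), -0.432 (degradation) and -0.524 (all members), where the median of all genes was -0.24. The degradation median was 0.00541 with each probe counted on its own, and that of the Atf4-Ddit3 arm ran from -0.509 to -0.216 with 1 array left out. All genes called lower were 2926 with quantile normalization, 8040 with median centring, 2690 with normexp, 7402 without a filter, 2750 with cyclic loess, 1000 with the replicate block and 929 to 1352 with 1 array left out, against 1568; 2318 in place of 4609 were higher with the filter on all 8 arrays. The cause was not tested. The replicate numbers do not pair the samples (same-number correlations of deviations -0.104 to -0.0286): with them as a block 3 members were lower, the same 3 genes, and among the other pathway genes 5 were lower and 4 higher. Members lie above background on all arrays, so signal limits only dim genes such as Derl3.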
